A study of Mus musculus with 4 samples.

Results

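The 40 genes described here repair or sense damaged DNA outside the chromosome exchanges of meiosis, and were followed on 4 arrays of testis RNA from hypogonadal (hpg) mice. The members were chosen by gene symbol: every probe set, the group of short oligonucleotides that reads 1 transcript on the array, whose only symbol in the platform annotation is 1 of the 40 belongs to the set. Of the 40 genes, 38 had such a probe set and together they had 50 of the 12422 probe sets on the array that are not controls. Atr and Rad18 had none and have no value here.

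The mice lack gonadotropin-releasing hormone, so their testes receive little stimulus to make testosterone. All groups share this background and a first course of testosterone propionate, an injectable testosterone ester, followed by its withdrawal. The labels give 2 weeks for that course on 3 arrays and no duration for T+T replicate 1. T+O is 1 array, so named by its title and withdrawn by its description. T+T is 3 arrays. Replicate 1 received testosterone propionate a second time for 4 hours according to its description, while the descriptions of replicates 2 and 3 end at withdrawal, so only their titles place them in T+T. The labels give no age, strain or number of animals per array. The p-values of T+T minus T+O therefore measure only the spread between the T+T arrays, moderated by that of other probe sets. This spread may be technical, and the lone T+O array adds nothing to it. In whole testis RNA, fewer cells of a type and less RNA per cell cannot be told apart.

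DNA repair is divided among pathways that each recognise a kind of lesion. Breaks through both strands are rejoined end to end or copied from the sister chromatid by homologous recombination, mismatch repair corrects replication errors, nucleotide excision repair cuts out bulky lesions, and base excision repair replaces single damaged bases. Crosslinks between the strands are undone by the Fanconi anaemia proteins together with homologous recombination and the translesion polymerases. In the testis these genes serve the dividing spermatogonia and the spermatocytes, and many are expressed in somatic cells as well.

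Signals were scaled so that the mean of each array, without the top and bottom 2% of probe sets, was equal. A scaled signal has no absolute unit, and signals of different probe sets are not compared. A log2 difference is the mean over the T+T arrays minus T+O of log2(signal + 9.78), on which the change of a dim signal comes out too small. Testing was limited to probe sets where the mean scaled signal over the 4 arrays was above 22.66, called kept from here on: 7453 of all probe sets and 35 of the 50 repair probe sets, from 30 genes. Of these 35, Prkdc alone was kept only through its T+O signal. None of the 35 passed an adjusted p of 0.05 in limma, fitted over all 7453 kept probe sets, of which 2 passed (0.0268%). At an unadjusted p under 0.05 there were 4 in the set, 1 higher and 3 lower in T+T, and 7.8% of all kept probe sets. The lowest adjusted p among the members was 0.22 in limma.

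Although no member passed the test, 4 lay at least 1.5-fold to one side of T+O on each T+T array. Rev3l, Brca2 and Fancc were lower on all 3 arrays, which is 8.57% of the 35 against 2.23% of all kept probe sets. Rad1 was higher on all 3, which is 2.86% of the 35 against 1.84%. The members were chosen with earlier results of these data known, Rev3l among them. Here and below, shares of the set that count Rev3l are therefore description only. The promoter windows of the members among these 4 that the RefSeq table holds are printed for reference, as the 250 bases before the gene's start in build GRCm38.p6. Capitals mark matches on either strand to the letters TGACGTCA of the cAMP response element, CCGGAAGT of the ETS family, GGGCGG of the GC box, or the boxes CCAAT and TATAAA, or to the androgen response element. The matches in these 3 windows do not overlap one another.

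Brca2 (chr5:150522371-150522620, plus strand): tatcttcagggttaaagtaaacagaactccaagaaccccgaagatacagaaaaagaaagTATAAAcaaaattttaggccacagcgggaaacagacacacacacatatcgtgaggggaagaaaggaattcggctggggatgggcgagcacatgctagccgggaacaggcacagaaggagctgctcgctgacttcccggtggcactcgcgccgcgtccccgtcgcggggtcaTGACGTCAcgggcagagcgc
Fancc (chr13:63431746-63431995, minus strand): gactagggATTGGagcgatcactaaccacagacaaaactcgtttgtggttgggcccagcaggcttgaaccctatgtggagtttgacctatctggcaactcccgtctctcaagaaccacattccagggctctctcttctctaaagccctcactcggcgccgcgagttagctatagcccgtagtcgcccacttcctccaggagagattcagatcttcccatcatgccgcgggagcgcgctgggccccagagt
Rad1 (chr15:10485768-10486017, plus strand): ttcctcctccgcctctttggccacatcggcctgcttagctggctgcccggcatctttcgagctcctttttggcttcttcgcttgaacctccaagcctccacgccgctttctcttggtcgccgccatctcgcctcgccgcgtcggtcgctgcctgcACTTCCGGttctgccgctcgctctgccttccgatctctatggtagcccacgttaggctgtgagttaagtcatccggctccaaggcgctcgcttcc

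The Brca2 window holds the cAMP response element letters 13 to 20 bases before the start, which are in 1.62% of 27025 windows of this length, 1 per gene, and in no other of the 30 member windows. Its TATAAA match lies 186 to 191 bases before the start, and such letters are in 13% of all windows. The Fancc window holds CCAAT letters 238 to 242 bases before the start, on the other strand, and such letters are in 17 of the 30 member windows and 34.5% of all. The Rad1 window holds ETS letters 88 to 95 bases before the start, also on the other strand. ETS letters are in 2.93% of all windows and in those of Ogg1 and Nthl1 among the members. The androgen response element, searched as its palindrome of 2 half-sites, was in none of the 30 and in 0.0037% of all windows. GC box letters were in 19 of the 30 member windows and 32.9% of all, and in none of the 3 printed. CpG dinucleotides numbered 18 in the Brca2 window, 13 in Fancc and 23 in Rad1. The letters searched were chosen with the windows known, so these shares are description only. These matches are letters in a window and were not measured for binding.

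Among the translesion and crosslink genes, both measured members were lower in T+T. Rev3l encodes the catalytic subunit of DNA polymerase zeta, which extends DNA synthesis past lesions that stop the replicative polymerases. Its scaled signal was 139 in T+O and 19.9, 35.0 and 43.9 on T+T replicates 1, 2 and 3. The T+O array was well above all 3, and replicate 1, the array described as given testosterone again, was the lowest. In log2 terms T+T differed by -1.84 ± 0.37 (SE), with an adjusted p of 0.25 in limma. Fancc encodes a subunit of the Fanconi core complex, which starts the unhooking of crosslinked strands. Probe set 160895_at had 123 in T+O and 46.6, 33.4 and 39.6 in T+T. The 3 T+T arrays were close together, all under the T+O array, and replicate 1 was the highest of them. In log2 terms the gap was -1.42 ± 0.27 (SE), with an adjusted p of 0.22 in limma. A second Fancc probe set, 161709_at, was near the floor of the scale with 0.823 in T+O and 1.48 to 3.45 in T+T, and was not kept.

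Leaving out T+T replicate 1 changed the call for 3 of these genes. Rev3l then stood at -1.60 on the log2 scale with an adjusted p of 0.012 in limma, Fancc at -1.52 with 0.024 and Brca2 at -1.26 with 0.029. In that fit 63 of all kept probe sets passed, against 2 with all arrays, and the lone T+O array was given the spread of the 2 T+T arrays left. That fit had 1 residual and 22.8 prior degrees of freedom, against 2 and 5.73 with all arrays, so its spread came mostly from other probe sets. Across the other settings with groups by title the adjusted p of these 3 genes reached 0.54 in limma. Their log2 differences were between -2.03 and -1.37 for Rev3l, between -1.52 and -1.08 for Fancc and between -1.51 and -1.13 for Brca2 over 9 alternatives.

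**Figure D1:**
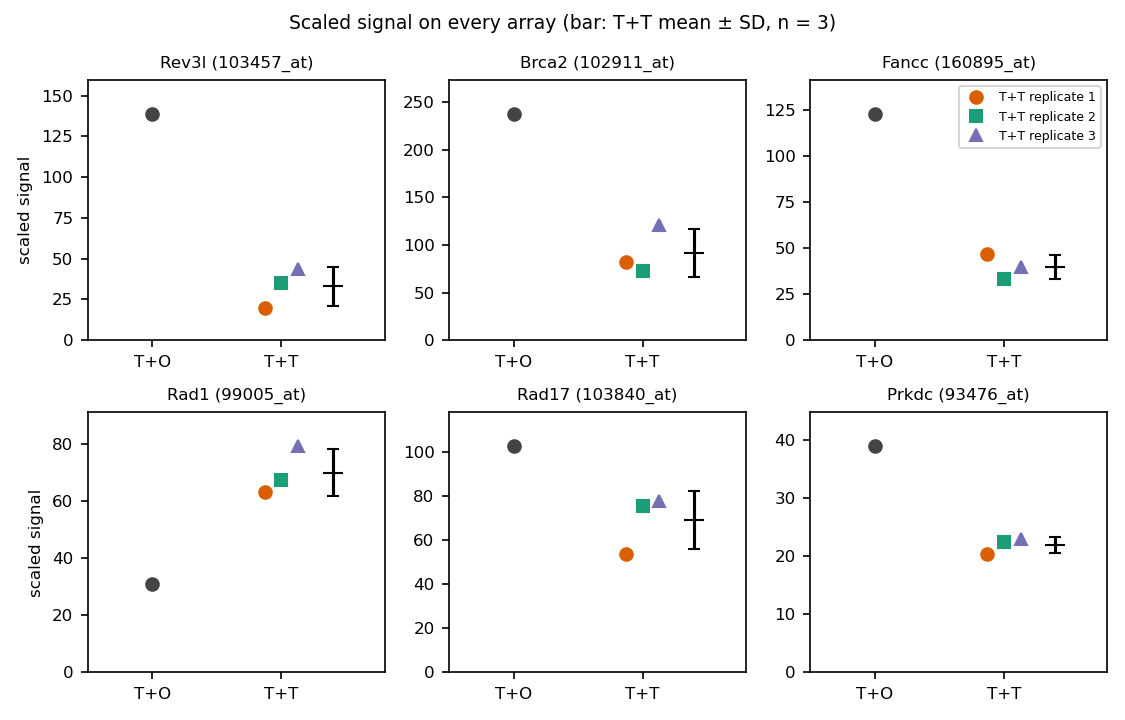
Scaled signal (linear axis from 0) on each array for 6 repair probe sets, with the T+O array in grey, the 3 T+T arrays in colour and the T+T mean ± SD (n = 3) as a bar. Rev3l, Brca2 and Fancc have T+O far above the T+T arrays (139, 237.5 and 123 against T+T means of 32.9, 91.6 and 39.9), Rad1 has it below (31.0 against 70.1), and Rad17 and Prkdc show smaller gaps.

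Among the genes of homologous recombination and double-strand break signalling, 5 of 7 kept probe sets had T+O above every T+T array. Over all 35 kept repair probe sets this was so for 16, or 45.7%, against 23.7% of all kept probe sets. Brca2 acts in homologous recombination and is itself a Fanconi gene. It had 237.5 in T+O and 82.1, 72.3 and 120 in T+T. All 3 T+T arrays were under the T+O signal, with replicate 3 the nearest to it. The gap was -1.32 ± 0.29 (SE) on the log2 scale, with an adjusted p of 0.26 in limma. Brca1, the ubiquitin ligase subunit that acts before Brca2, did not share this gap. It had 23.9 in T+O and 24.3, 23.2 and 36.1 in T+T, so that the groups overlapped, and its log2 difference was 0.15 ± 0.38 (SE).

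The 3 subunits of the MRN complex, which binds broken ends and activates Atm, had small differences of 1 sign. Rad50, the ATPase that bridges the ends, had 239 in T+O and 195, 153 and 206 in T+T, a log2 gap of -0.37 ± 0.22 (SE). Nbn, the subunit that recruits Atm, had 33.9 in T+O and 18.3, 24.4 and 28.4 in T+T, a log2 gap of -0.40 ± 0.37. The nuclease Mre11a had 82.3 against 71.7, 56.9 and 78.8, a log2 difference of -0.23 ± 0.26. T+O was above all 3 T+T arrays for each of them, but the differences were smaller than those of Brca2, and the Mre11a probe set has the suffix _s_at of sequences shared between transcripts. Trp53bp1, the chromatin reader that limits end resection, had 89.7 against 77.5, 80.5 and 83.4, with a T+T SD of 2.92. Rad52, an annealing protein, had 59.0 in T+O and 71.4, 52.9 and 84.9 in T+T on its kept probe set, and the groups overlapped. Its second probe set, 161727_r_at, had 2.10 in T+O and at most 0.935 in T+T and was not kept. The kinase Atm, which sits at the top of the break response, had 4.85 in T+O and 13.8, 7.70 and 7.95 in T+T. Rad54l, a DNA translocase of homologous recombination, had 5.94 in T+O and 13.9, 9.02 and 16.0 in T+T. Neither reached the filter level, so no direction is read from them.

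The 2 kept checkpoint clamp genes differed in sign. Rad1 and Rad9a are subunits of the 9-1-1 ring that is loaded at stalled replication forks, and Rad17 is the loader's large subunit. Rad1 had 31.0 in T+O and 63.3, 67.7 and 79.4 in T+T. Every T+T array was at least 1.5-fold above the T+O signal, and the T+T SD was 8.34. The log2 gap was 0.96 ± 0.26 (SE), with an adjusted p of 0.34 in limma and of 0.22 to 0.56 over 9 alternatives with groups by title. Rad9a had 4.66 in T+O and 23.2, 15.4 and 21.5 in T+T. It did not reach the filter level and its T+O signal was below the offset, so no direction is read from it. Rad17 went the other way, with 103 in T+O and 53.8, 75.5 and 77.4 in T+T. T+O was above all 3 arrays, and the log2 gap was -0.53 ± 0.27 (SE) with an adjusted p of 0.71 in limma.

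The end joining genes were close to T+O except for Prkdc. Prkdc encodes the catalytic subunit of DNA-dependent protein kinase, which is recruited to ends by the Ku heterodimer of Xrcc5 and Xrcc6. It had 39.0 in T+O and 20.5, 22.4 and 23.1 in T+T. The T+T arrays lay within an SD of 1.35, and their mean of 22.0 was under the filter level. The log2 gap was -0.62 ± 0.35 (SE), with an adjusted p of 0.74 in limma. Xrcc5 had 59.7 against 50.8, 55.7 and 48.5 on its kept probe set, a log2 difference of -0.18 ± 0.26, and at most 0.274 on any array on 161686_i_at, which was not kept. Xrcc6 had 46.0 against 47.2, 50.5 and 52.1, a log2 difference of 0.10 ± 0.26. Both Ku subunits thus differed from T+O by less than 1 standard error each, in opposite directions.

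Mismatch repair was thinly measured, with 1 kept probe set. Msh3, which serves the repair of insertion and deletion loops, had 52.4 in T+O and 38.5, 51.5 and 66.3 in T+T. T+O lay inside the T+T range, and the log2 difference was -0.03 ± 0.32 (SE). A second Msh3 probe set, 162155_f_at, had 6.68 in T+O and at most 2.96 in T+T. Msh6, the subunit that recognises single mismatches, was under the filter at 18.0 in T+O and 16.3 ± 0.343 (SD, n = 3) in T+T. The endonuclease partner Pms2 had 30.7 in T+O and 23.5, 21.5 and 13.4 in T+T and was also under it.

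The nucleotide excision repair genes had 2 kept probe sets higher and 6 lower in T+T, none past the test. Ercc5, the nuclease that cuts on the 3′ side of the lesion, had 54.7 in T+O and 43.6, 28.7 and 41.1 in T+T on its kept probe set. T+O was above each T+T array, by a log2 difference of -0.45 ± 0.32 (SE). Its other probe set, 161777_f_at, was not kept and had 7.04 in T+O inside a T+T range of 6.10 to 10.9. Ercc1, a subunit of the 5′ nuclease, had 55.2 in T+O and 42.2, 70.5 and 75.5 in T+T. Here replicate 1 was below T+O and the others above it, with a log2 difference of 0.12 ± 0.33. Ercc3, a helicase of the transcription factor TFIIH, had 107 against 84.3, 111 and 108. Xpa, which verifies the lesion, had 26.8 against 21.2, 23.2 and 36.5 on its kept probe set. The groups overlapped for both. The second Xpa probe set, 161552_i_at, had 0.549 in T+O and 0.663 to 9.35 in T+T and was not kept. The lesion sensor Xpc was under the filter, at 22.0 in T+O and 20.5 ± 3.19 (SD, n = 3) in T+T.

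There were 5 genes with 2 kept probe sets each, and 4 of these 5 pairs had opposite signs. Ercc2, the other TFIIH helicase, had 237.5 in T+O and 197, 192 and 206 in T+T on 92278_at, a log2 difference of -0.25 ± 0.19 (SE). On 99397_at it had 136 in T+O and 207, 183 and 173 in T+T, a log2 gap of 0.44 ± 0.20. T+O was above every T+T array on the first and below every one on the second. Lig3, the ligase of single-strand break repair, had 84.4 in T+O and 80.7, 97.8 and 141 in T+T on 102803_at, a log2 difference of 0.27 ± 0.30. On 96220_at it had 67.3 in T+O and 50.1, 51.1 and 53.9 in T+T, a log2 gap of -0.33 ± 0.25. The uracil glycosylase Ung had 103 against 94.0, 94.1 and 113 on 102792_at, a log2 difference of -0.04 ± 0.22. On 162227_r_at it had 186 against 228, 236 and 262, a log2 difference of 0.36 ± 0.19. Xrcc1, the scaffold that binds Lig3, had 162 against 197, 190 and 160 on 99938_at, a log2 difference of 0.16 ± 0.21. On 161560_f_at it had 75.8 against 78.4, 69.0 and 63.6, a log2 difference of -0.10 ± 0.24. The direction is uncertain for these 4 genes. Lig3 102803_at, Ung 102792_at and both Xrcc1 probe sets differed from T+O by less than 1 standard error. Ung 162227_r_at and Xrcc1 161560_f_at carry a suffix. Rad23b, the ubiquitin-like partner of Xpc, alone had 1 sign on both, with -0.41 ± 0.24 on 96102_i_at and -0.17 ± 0.23 on 96103_f_at. Its signals were 185 in T+O and 113, 139 and 163 in T+T on the first, and 177 in T+O and 130, 172 and 169 in T+T on the second. On both, replicate 1 was the lowest array. Both Rad23b probe sets carry a suffix too, _i_at for a probe set with fewer probes than intended and _f_at for one that reads a sequence family.

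**Figure D2:**
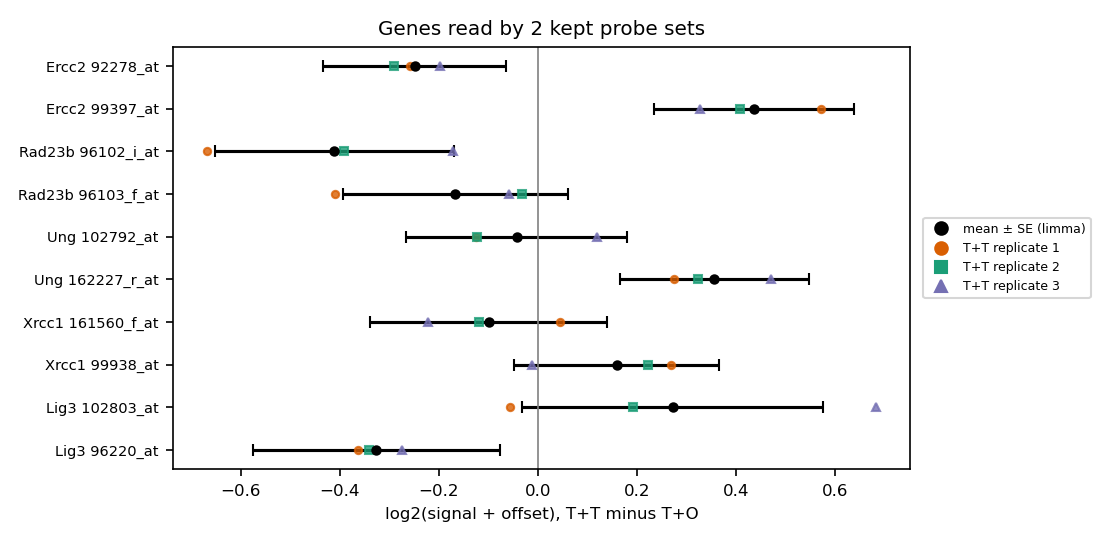
Log2 difference of T+T minus T+O on the log2(signal + 9.78) scale (horizontal) for the 5 repair genes with 2 kept probe sets (rows): black points with bars are the limma mean and standard error, coloured points are the 3 T+T arrays against T+O. Ercc2 runs from -0.25 to 0.44 between its probe sets, and only Rad23b stays on one side of 0 in both means.

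The base excision, single-strand break and direct repair genes lay nearest to T+O, with 6 kept probe sets higher and 6 lower and a median log2 difference of 0.00. Apex1, the endonuclease that cuts at sites without a base, had 203 in T+O and 211, 216 and 201 in T+T, a log2 gap of 0.04 ± 0.19 (SE). Polb, the polymerase that fills the resulting gap, had 175 against 119, 180 and 150, a log2 difference of -0.23 ± 0.25. The glycosylases Ogg1, for oxidised guanine, and Mpg, for alkylated purines, had 66.5 against 68.0, 82.0 and 85.9 and 50.9 against 63.8, 54.4 and 59.0. Both had T+O below all 3 T+T arrays, by log2 differences of 0.21 ± 0.24 and 0.18 ± 0.25. Lig1, the replicative ligase, had 168 in T+O and 135, 145 and 122 in T+T on its kept probe set, a log2 difference of -0.31 ± 0.21 with T+O above all 3. Its other probe set, 162004_i_at, had 5.94 in T+O and 3.91 to 18.0 in T+T. The strand break sensor Parp1, on a sequence family probe set, had 114 against 95.9, 96.2 and 119, a log2 difference of -0.14 ± 0.23. The glycosylase Nthl1 was under the filter, at 8.51 in T+O and 25.2, 38.1 and 9.27 in T+T. Mgmt, which removes alkyl groups directly from guanine, had 12.2 in T+O and 5.87, 15.1 and 5.69 in T+T and was also under it.

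**Figure D3:**
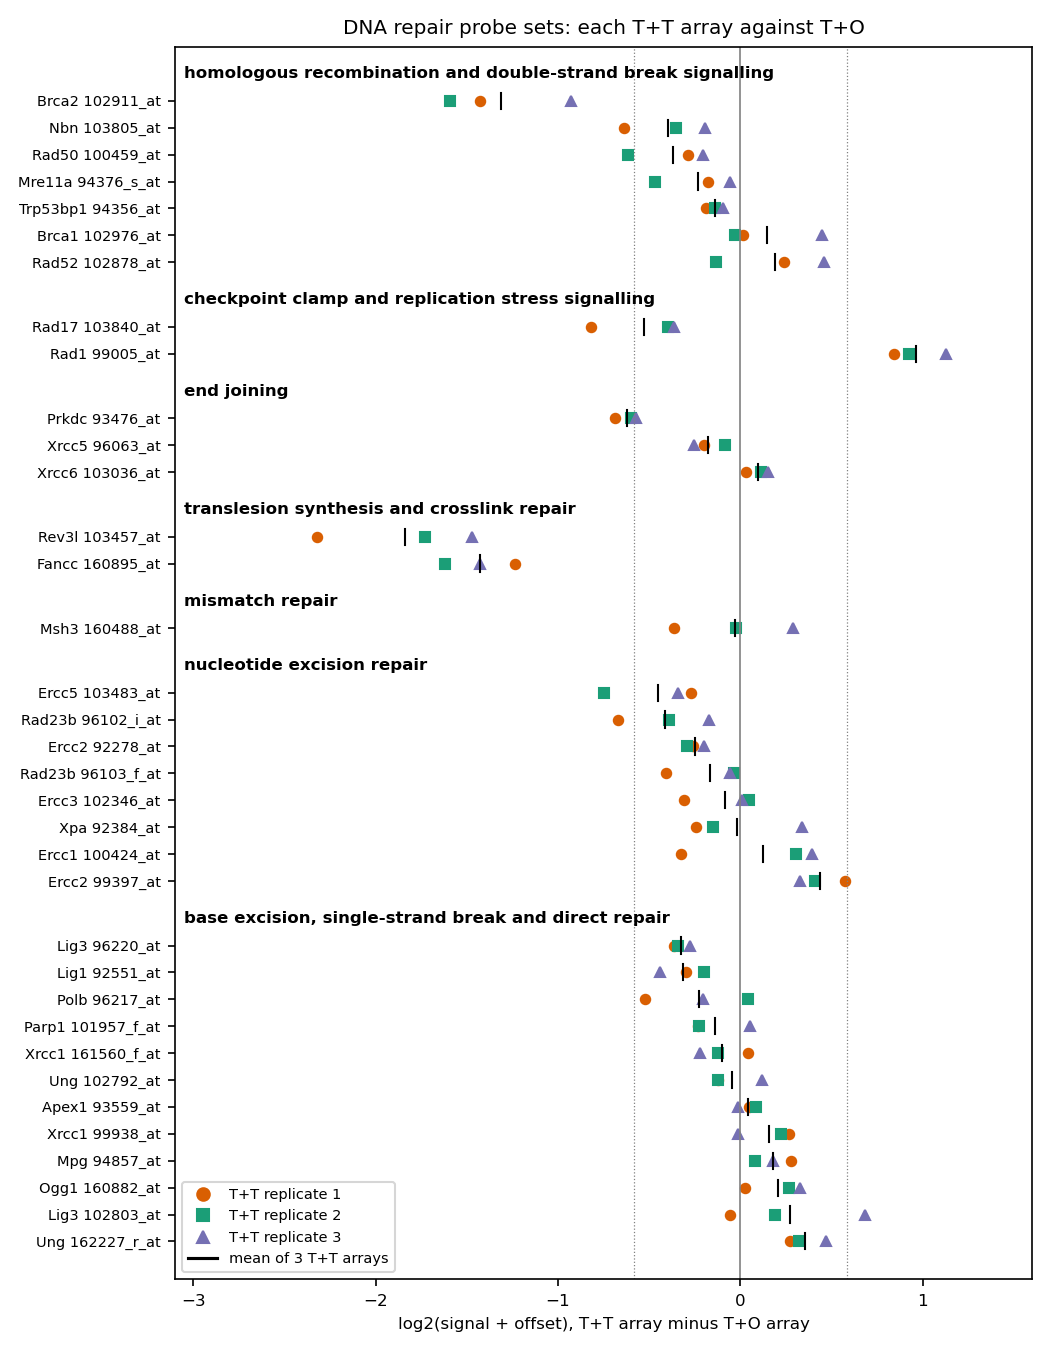
Log2 difference of each T+T array from the T+O array on the log2(signal + 9.78) scale (horizontal) for the 35 kept repair probe sets (rows), grouped by role: circles, squares and triangles are T+T replicates 1, 2 and 3, black ticks their mean, dotted lines 1.5-fold. Rev3l, Brca2 and Fancc have all 3 arrays left of the lower line and Rad1 all 3 right of the upper one, and the other 31 means lie between -0.62 and 0.44.

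Over the whole set, 12 kept probe sets were higher and 23 lower in T+T, with a median log2 difference of -0.14. Over all kept probe sets 4005 were higher and 3448 lower, with a median of 0.03. Thus 65.7% of the kept repair probe sets and 46.3% of all kept probe sets had a T+T mean below T+O. T+O was below all 3 T+T arrays for 6 repair probe sets, or 17.1%, against 29.5% of all kept. Without the filter, 20 of the 50 repair probe sets were higher and 30 lower, with a median of -0.08. With the 4 named above taken out for their large differences, the remaining 31 kept probe sets had a median of -0.10. The set of all kept probe sets was not trimmed in this way. The medians for T+T replicates 1, 2 and 3 taken singly against T+O were -0.24, -0.12 and -0.06.

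**Figure D4:**
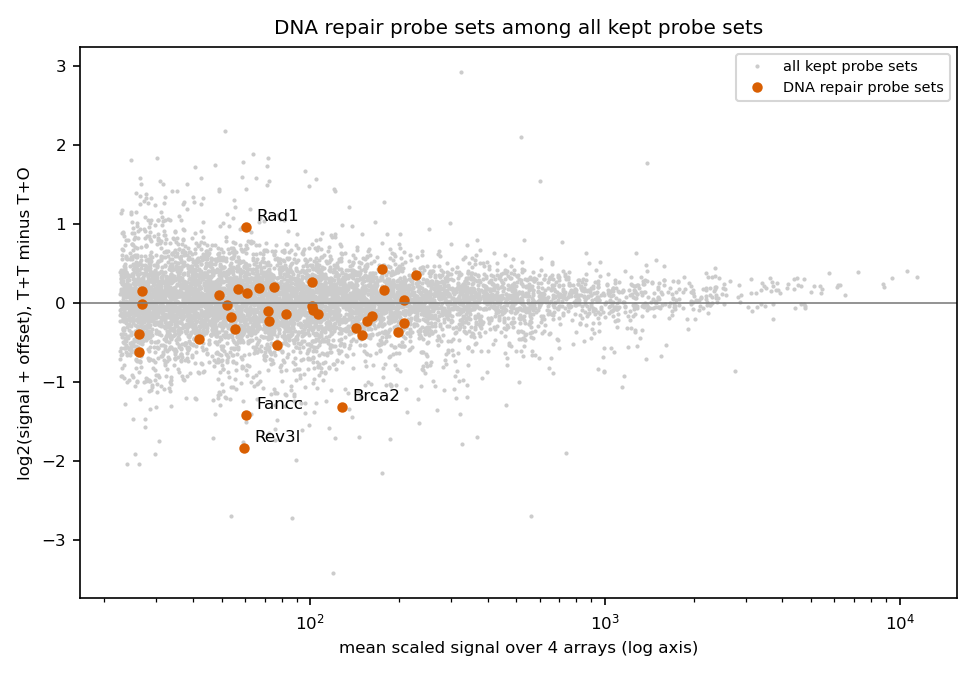
Log2 difference of T+T minus T+O on the log2(signal + 9.78) scale (vertical) against the mean scaled signal over the 4 arrays (horizontal, log axis), with all 7453 kept probe sets in grey and the 35 repair probe sets in orange. Rev3l at -1.84, Fancc at -1.42, Brca2 at -1.32 and Rad1 at 0.96 stand off the main band and the other repair probe sets lie within it.

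The arrays for which title and description match, T+O replicate 1 and T+T replicate 1, gave 7 repair probe sets at least 1.5-fold lower and 1 higher in T+T replicate 1. This is 20% and 2.86% of the 35, against 11.1% and 6.87% of all kept probe sets, with no replicate check. The 7 were Rev3l at -2.32 on the log2 scale, Brca2 at -1.43, Fancc at -1.23, Rad17 at -0.82, Prkdc at -0.69, Rad23b 96102_i_at at -0.67 and Nbn at -0.64, and the 1 was Rad1 at 0.84. Prkdc among the 7 was kept only through its T+O signal. On T+T replicate 1 itself, Rev3l at 19.9, Nbn at 18.3 and Prkdc at 20.5 were all under the filter level. For this pair, Rev3l and Nbn were therefore also kept only through other arrays. Taking the descriptions of T+T replicates 2 and 3 over their titles, T+T replicate 1 was set against the other 3 arrays. Then 1 repair probe set was at least 1.5-fold lower than on all 3 (2.13% of all kept were) and none was higher (0.671% were). That one was Rev3l, at -1.26 ± 0.61 (SE), and no repair probe set passed in limma (lowest adjusted p = 0.92). Rev3l had 19.9 on T+T replicate 1, under the filter level, so in this reading it was kept only through the other arrays. Brca2 became -0.59 ± 0.51, Fancc -0.22 ± 0.58 and Rad1 0.16 ± 0.44.

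Other repair genes, from a list of 76 that are not members, had 40 kept probe sets of 37 genes. None passed in limma over all probe sets, 20 were higher and 20 lower, and the median log2 difference was 0.00. At an unadjusted p under 0.05 in limma there were 2, or 5% of the 40 against 7.8% of all kept probe sets, both lower in T+T. These were Rfc1, the large subunit of the clamp loader that replication and repair share, and Smc6, a core subunit of the SMC5/6 complex of recombination repair. Rfc1 had 145 in T+O and 61.2 ± 16.8 (SD, n = 3) in T+T, a log2 gap of -1.16 ± 0.30 (SE). A second Rfc1 probe set, 98336_s_at, had 2.74 in T+O and 4.95 to 10.5 in T+T and was not kept. Smc6 had 48.5 against 20.7 ± 4.03, a log2 difference of -0.94 ± 0.37, and was kept only through its T+O signal. The Werner helicase Wrn followed at -0.41 ± 0.24. The highest were the nuclease Exo1 at 0.37 ± 0.39, the TFIIH subunit Gtf2h4 at 0.34 ± 0.18 and the clamp loader subunit Rfc4 at 0.32 ± 0.22. Pcna, the clamp itself, had 436 against 456 ± 40.2. Of 15 genes of the p53 and damage response, 6 had 7 kept probe sets, 4 higher and 3 lower, and none passed in limma at an adjusted or an unadjusted p of 0.05. The lowest were the p53 ligase Mdm2 at -0.44 ± 0.23, Gadd45b 161666_f_at at -0.37 ± 0.35 and Sesn1 at -0.32 ± 0.23. The highest were Btg2 at 0.31 ± 0.23, the cell cycle inhibitor Cdkn1a at 0.20 ± 0.44 and the second Gadd45b probe set at 0.13 ± 0.37.

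No kept probe set of the testis cell type markers was at 0 on any array, though a signal above 0 is not a detection call. A summed signal is led by its brightest probe sets. The summed signal of the spermatid markers was 30710 in T+O and 30210 to 38850 in T+T, and that of the spermatocyte markers 7850 against 7534 to 9213. The Sertoli sum was 3228 against 3241 to 3691, and the Leydig sum 383 against 321 to 422. The spermatogonia sum was 1295 in T+O and 861 to 1231 in T+T, with 4 of 7 kept probe sets lower in T+T and Ddx4 alone at 635 in T+O. The macrophage sum was 349 against 406 to 513, and the proliferation sum 4044 against 4254 to 5114, with 12 of 15 kept probe sets higher. T+O thus lay above the T+T range for the spermatogonia sum and below it for the macrophage and proliferation sums. For the Sertoli sum it was barely below, at 3228 against a lowest T+T sum of 3241. Of 60 kept marker probe sets, 4 were at least 1.5-fold lower in T+T on all 3 arrays (6.67%, against 2.23% of all kept) and 1 was higher (1.67%, against 1.84%). The lower ones read the spermatocyte marker Sycp1, Dazl (1 of its 2 kept probe sets), and the proliferation genes Bub1 and Top2a, and the higher one read Plk1, a mitotic kinase, on 1 of its 3 kept probe sets. Sycp1 had 390 in T+O and 13.5, 38.5 and 36.15 in T+T. Its log2 gap of -3.425 ± 0.42 (SE) was wider than that of any member. The other 5 kept spermatocyte probe sets were higher in T+T. For the control Gapdh, signal at the 3′ end over signal at the 5′ end was 1.20 in T+O and 0.844 ± 0.039 (SD, n = 3) in T+T, and for pyruvate carboxylase it was 3.76 against 1.90 ± 0.123. The Actb ratio of 1.53 in T+O lay inside the T+T range of 1.17 to 1.66. The part of these markers and ratios in the lower Rev3l, Brca2 and Fancc signals was not tested.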

How the data were processed

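The authors deposited 1 table of linear signal intensity values with a row for each probe set and a column for each array. Software and scaling are not given in the sources used here. The 66 control probe sets were left out. Deposited array medians ran from 25.4 to 48.3, so arrays were multiplied by 0.779 to 1.33 to a common mean trimmed by 2% at each end. The offset of 9.78 is the 25th percentile of scaled values and the filter of 22.66 the 40th percentile of probe set means. Gene names came from the platform annotation, updated by gene ID through a RefSeq table of GRCm38.p6. Of the 12422 probe sets, 10833 had 1 symbol, 396 several and 1193 none. Promoter windows came from RefSeq, first listed start per gene, with 30 of the 38 members matched.

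T+T minus T+O was fitted with limma 3.58.1 in R 4.3.3 (lmFit, eBayes with intensity trend, two-sided, Benjamini-Hochberg over 7453 probe sets) on all 4 arrays. The fit had 2 residual and 5.73 prior degrees of freedom, and the lone T+O array was assumed to vary like T+T. The procedure was tested on simulated data. The simulated arrays all had the same spread for a probe set, so that test could not check the assumption on the T+O array. The number of arrays limits the precision. No detection calls were used.

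Values are given for all members. Of the other repair and p53 lists the 3 highest and 3 lowest kept differences are named. Pcna, Ddx4 and the markers at least 1.5-fold to one side on all 3 T+T arrays were named after their values were seen. The members and lists were chosen with earlier results of these data known, Rev3l among them. Motif letters were chosen with the windows known. Alternatives were median and quantile scaling, another offset, filter and variance trend, leaving out each T+T array, and both readings of the labels.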

Additional observations from a re-analysis of the deposited data

How the results depend on the processing

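No member passed an adjusted p of 0.05 in limma under any setting run except without T+T replicate 1. Leaving out 1 T+T array gave 0 to 3 members past it, and 1 to 63 of all kept probe sets, against 2. The count of all kept probe sets past it was 5 with median scaling and 6 with the larger offset (50th percentile), and 0 with quantile scaling, no filter, no intensity trend, or T+T replicate 1 alone taken as treated. The count of 4 members at least 1.5-fold apart was 3 with the larger offset, where Rad1 dropped out, 5 with no filter, where Rad9a joined, 1 with T+T replicate 1 alone taken as treated, and 8 for T+T replicate 1 against T+O alone. The median of -0.14 became -0.24 for that pair of arrays and was between -0.19 and -0.08 when 1 T+T array was left out.

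Of 26 kept probe sets named by the rule, 8 changed sign under at least 1 alternative, and the cause was not tested. With T+T replicate 1 alone taken as treated, Brca1 became -0.12, Ercc1 -0.55, Ercc5 0.090, Lig3 102803_at -0.35, Xrcc1 161560_f_at 0.16 and Xrcc6 -0.058. Without 1 T+T array, Brca1 ran from -0.0056 to 0.23, Ercc1 from -0.0097 to 0.35, Msh3 from -0.19 to 0.13 and Xpa from -0.19 to 0.095. Rev3l, Brca2, Fancc and Rad1 kept their sign under every setting run. They were picked for lying to one side of T+O on every T+T array. Leaving out a T+T array, or taking replicate 1 against T+O alone, therefore could not reverse their sign. The filter and trend settings do not alter a log2 difference. No paired analysis was possible because T+O has a single array and no number that pairs it with a T+T array. T+O could not be left out, being alone in its group.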
